A study of Mus musculus with 8 samples.

Results

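The genes described here are 39 markers of Kupffer cells and other myeloid cells, and they were read in bulk RNA from the livers of chow-fed mice with and without NgBR in hepatocytes. They were taken by symbol, from a list chosen with earlier results of these data known. Of the 39 genes, 38 had a row among the 19642 genes of the count table, and 37 of these passed the filter on low counts that left 14214 genes for testing. Lyz1 was not analysed here, and Ly6c2, a surface marker of inflammatory monocytes, fell below the filter.

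Kupffer cells are the resident macrophages of the liver and line the sinusoids, where they take up bacteria, aged red cells, hemoglobin and lipoproteins from the blood. Their identity is maintained by signals from endothelial cells, stellate cells and hepatocytes, and it includes genes that few or no other macrophages express, such as Clec4f. Other genes on the list, such as Adgre1 (F4/80), Csf1r and Ptprc (CD45), are shared by macrophages or leukocytes in general, so the 2 kinds of marker can be set beside each other in the same liver.

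The samples were livers of 4 WT and 4 N-LKO male C57BL6 mice on a chow diet (CD), with 1 library per mouse. N-LKO mice carry loxP-flanked Nus1 alleles, the gene that encodes NgBR, and Cre under the albumin promoter, which is active in hepatocytes, so the deletion was not directed at macrophages. Whether the WT mice carried loxP alleles or Cre was not stated in the sources used here, and the length of the diet is uncertain, with 8 weeks in the sample titles and 16 weeks in the treatment entries. Libraries were made after removal of rRNA. Their total counts ranged from 14688404 to 18585412. In CPM, which are counts scaled by edgeR's TMM method to a common library size, Nus1 was at 88.2 ± 4.14 (SD, n = 4) in WT and dropped to 36.7 ± 2.57 (SD, n = 4) after deletion. Hepatocyte markers such as albumin summed to 73254 to 103068 CPM in WT and 76614 to 93044 CPM in N-LKO livers, against 496 to 739 CPM and 518 to 677 CPM for the 38 Kupffer and myeloid genes, so the tissue is whole liver in which these markers are a small share. Every defining marker named above was present in each library.

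Cd163 was the 1 gene of the list whose level differed between genotypes beyond the threshold, and it was lower in N-LKO livers. Cd163 encodes the scavenger receptor by which macrophages clear hemoglobin bound to haptoglobin, and its plus-strand locus spans 124304656 to 124330527 of chromosome 6 (GRCm38). In the WT livers it was at 23.4, 10.5, 11.5 and 17.6 CPM. The N-LKO livers were at 5.44, 6.34, 3.65 and 5.36 CPM. The genotypes did not overlap, since the highest N-LKO liver was below the lowest WT liver. These values rest on up to 437 counts per WT library and on 55 to 96 counts per N-LKO library. The mean fell from 15.7 ± 5.97 CPM (SD, n = 4) to 5.20 ± 1.12 CPM (SD, n = 4), so 33.0% of the WT level was left. On the log2 scale Cd163 differed by -1.60 with a standard error of 0.261, and the Benjamini-Hochberg adjusted p over all tested genes was 0.0167 (edgeR, quasi-likelihood). With each mouse left out it stayed between -1.75 and -1.35. The call was lost without WT mouse 4 (edgeR adjusted p = 0.0535) and without N-LKO mouse 3 (edgeR adjusted p = 0.0597). In bulk liver RNA, fewer Kupffer cells and less RNA of a gene per cell cannot be told apart from the level of that gene alone.

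Across the whole list, 1 of 37 tested genes was called lower and 0 were called higher by edgeR at an adjusted p under 0.05, where 1.04% of all tested genes were called (0.823% higher and 0.218% lower). At an unadjusted p under 0.05, 2 genes were lower (Cd163 and Timd4) and 1 was higher (Clec7a). In all, 3 of 37 genes reached that level, as did 12.8% of all tested genes (6.87% higher and 5.9% lower). Cd163 was also the 1 gene of 37 without overlap between genotypes, a pattern seen in 7.52% of all tested genes and, with N-LKO lower, in 3.32%. DESeq2, which called 2.61% of all tested genes, and limma-voom, which called 0.886%, also called Cd163 and no other gene of the list. Negative log2 fold changes were found for 26 of the 37 genes and for 50.7% of all tested genes, and the median was -0.074 for the list and -0.0033 for all tested genes. Because genes of the list shifted together from mouse to mouse, their signs are not separate observations. The differences for the 37 genes, ordered by role, are plotted with their standard errors.

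**Figure D1:**
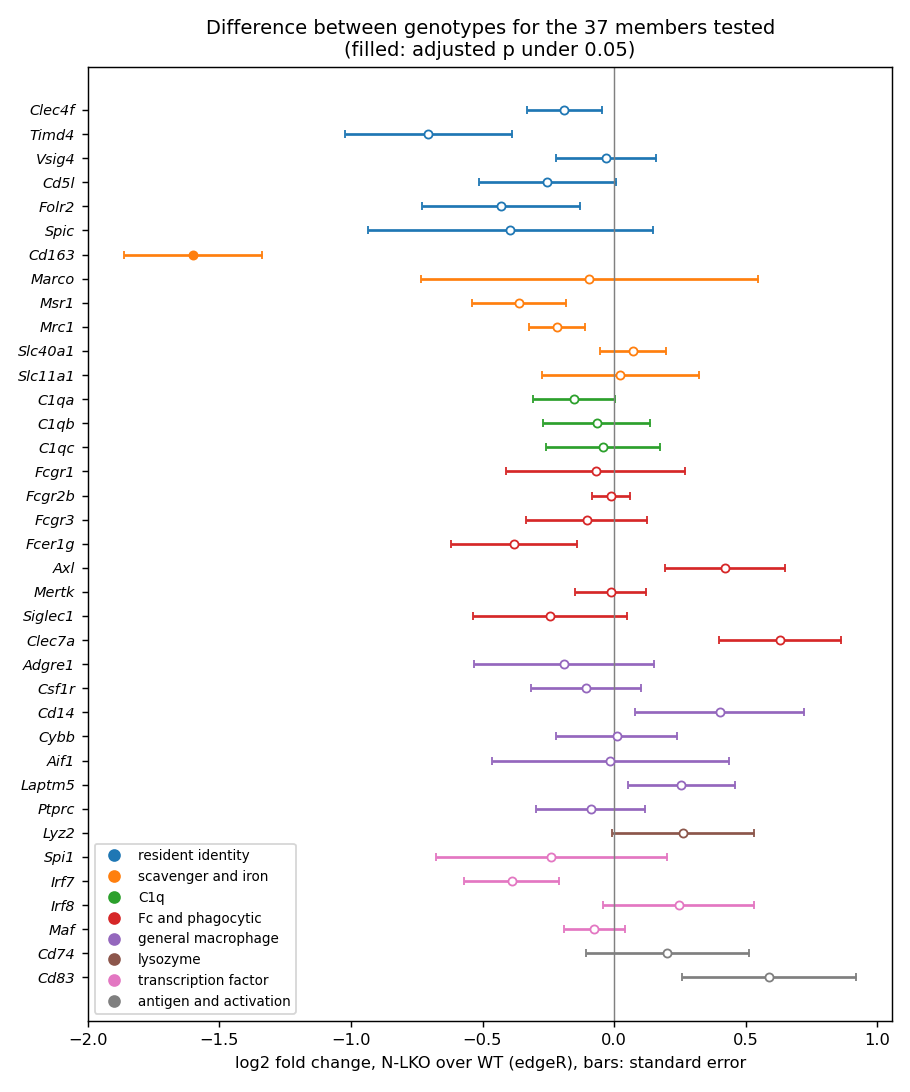
Log2 fold change of N-LKO over WT livers (horizontal axis) for each of the 37 genes tested, with points at the edgeR estimate, bars of 1 standard error, colors for the role of the gene and filled points for an adjusted p under 0.05. Cd163 at -1.60 is the 1 filled point, Timd4 at -0.71 is the next lowest and Clec7a at 0.63 is the highest.

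Among the 6 genes of resident identity, 0 passed the adjusted threshold, and each of the 6 had a negative log2 fold change, from -0.71 to -0.03, although that of Vsig4 turned positive in both fits with a replicate block (0.0058 and 0.0090) and without WT mouse 1 (0.18), WT mouse 4, N-LKO mouse 1 or N-LKO mouse 4. Clec4f encodes a C-type lectin that in mice is restricted to Kupffer cells, with a minus-strand locus on chromosome 6 between 83644542 and 83656187. Clec4f was at 39.1, 26.8, 27.2 and 30.7 CPM in WT livers. In N-LKO livers the values were 23.8, 29.6, 32.0 and 23.4 CPM. The 2 groups overlapped, with 2 N-LKO livers inside the WT range and 2 just below it. The mean in N-LKO livers was 87.8% of that in WT livers, and the log2 fold change was -0.19 with a standard error of 0.143 (edgeR adjusted p = 0.641).

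Timd4 encodes TIM-4, a receptor for phosphatidylserine on dying cells that marks long-lived resident Kupffer cells, with a plus-strand locus on chromosome 11 between 46810800 and 46844332. WT livers were at 5.72, 3.25, 2.85 and 8.06 CPM, and N-LKO livers at 2.44, 3.56, 3.72 and 2.58 CPM. WT mice 1 and 4 stood above every N-LKO mouse, whereas WT mice 2 and 3 lay among them. The log2 fold change was -0.71 (standard error 0.317), with an unadjusted p of 0.0487 and an adjusted p of 0.389 from edgeR. With each mouse left out it ranged from -0.89 to -0.37, and the adjusted p was 0.251 or higher in each of these fits.

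None of the other 4 identity genes had an unadjusted p under 0.05. Vsig4 (CRIg), the complement receptor that captures opsonized bacteria, was at 22.1, 12.2, 11.6 and 17.2 CPM in WT and at 13.7, 17.2, 16.9 and 14.3 CPM in N-LKO livers. The N-LKO values lay inside the WT range and their mean was 98.2% of the WT mean (log2 fold change -0.03, standard error 0.191). Cd5l, a secreted scavenger protein of macrophages, was at 43.0 ± 14.9 CPM (SD, n = 4) in WT mice against 36.1 ± 11.6 CPM (SD, n = 4) in N-LKO mice. Folr2, a folate receptor of resident macrophages, had a log2 fold change of -0.43 (standard error 0.300), but 975 of its exonic bases are shared with the antisense gene Gm10602 and its counts are uncertain where strand was not used. Spic, a transcription factor of macrophages that recycle heme iron, was near 1 CPM, with a log2 fold change of -0.39 and a standard error of 0.541.

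The promoter sequences of Cd163, Clec4f, Timd4 and Vsig4 are shown because these 4 markers are read against each other in the same livers. RefSeq promoter windows (GRCm38.p6) were found for 27 of the 38 genes. The 250 bases before the annotated start were searched on both strands for GAGGAA, the core letters bound by PU.1 (Spi1) and related ETS factors, and no other motif was searched. These letters were in the window of 15 of 27 genes (55.6%), against 25.9% of all genes with RefSeq windows of the same length. Vsig4 holds them at 155 and 53 bases before its start, in capitals. For Cd163, Timd4 and Clec4f these 6 letters are not in the bases shown. The 80 bases nearest the Clec4f start were left out because an annotated transcript begins within them. A match is a description of letters and not of binding. Each sequence is given 5′ to 3′ on the strand of its gene.
Cd163, plus strand, chr6:124304401-124304650: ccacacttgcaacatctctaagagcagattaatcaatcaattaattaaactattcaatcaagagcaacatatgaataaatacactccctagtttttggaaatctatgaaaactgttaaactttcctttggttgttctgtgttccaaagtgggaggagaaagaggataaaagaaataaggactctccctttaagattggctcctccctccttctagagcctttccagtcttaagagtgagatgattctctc
Clec4f, minus strand, chr6:83656197-83656366: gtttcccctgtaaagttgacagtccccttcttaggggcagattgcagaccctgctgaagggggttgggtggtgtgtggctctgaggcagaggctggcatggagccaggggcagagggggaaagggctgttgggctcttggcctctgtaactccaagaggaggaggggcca
Timd4, plus strand, chr11:46810549-46810798: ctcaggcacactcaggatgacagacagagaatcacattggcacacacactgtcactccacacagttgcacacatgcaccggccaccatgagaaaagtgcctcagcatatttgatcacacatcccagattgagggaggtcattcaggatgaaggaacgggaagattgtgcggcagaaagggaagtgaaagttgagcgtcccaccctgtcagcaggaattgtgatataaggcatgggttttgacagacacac
Vsig4, minus strand, chrX:96293439-96293688: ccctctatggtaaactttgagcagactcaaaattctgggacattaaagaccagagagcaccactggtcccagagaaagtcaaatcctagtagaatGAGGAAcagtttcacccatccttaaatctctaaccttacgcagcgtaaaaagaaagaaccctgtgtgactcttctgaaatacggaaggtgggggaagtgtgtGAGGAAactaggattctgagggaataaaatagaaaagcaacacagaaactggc

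None of the 5 other scavenger receptors and iron transporters on the list had an unadjusted p under 0.05. Msr1, the class A scavenger receptor, was at 16.5, 9.57, 11.8 and 14.2 CPM in WT and at 9.07, 12.7, 10.4 and 8.49 CPM in N-LKO livers. Its groups overlapped, and the log2 fold change of -0.36 had a standard error of 0.178 (edgeR adjusted p = 0.434). Mrc1, the mannose receptor, had a log2 fold change of -0.22 (standard error 0.106, edgeR adjusted p = 0.434), and sinusoidal endothelial cells express it as well. Marco, a receptor for bacteria, varied more within than between genotypes. It was at 5.93, 2.50, 2.92 and 19 CPM in WT livers, a 7.61-fold range, and at 4.48, 5.48, 15.5 and 3.39 CPM in N-LKO livers. WT mouse 4 and N-LKO mouse 3 stood above the rest, and the log2 fold change of -0.09 had a standard error of 0.641. Without WT mouse 4 it was 0.91.

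Slc40a1 encodes ferroportin, the iron exporter through which macrophages return iron from red cells to the blood. It was at 96.1 ± 19.3 CPM (SD, n = 4) in WT and 101 ± 4.07 CPM (SD, n = 4) in N-LKO mice, a log2 fold change of 0.07 (standard error 0.126). Slc11a1 (NRAMP1), an iron and manganese transporter of the phagosome, had a log2 fold change of 0.02 with a standard error of 0.299. The values of the resident identity, scavenger and iron genes in each liver are plotted together.

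**Figure D2:**
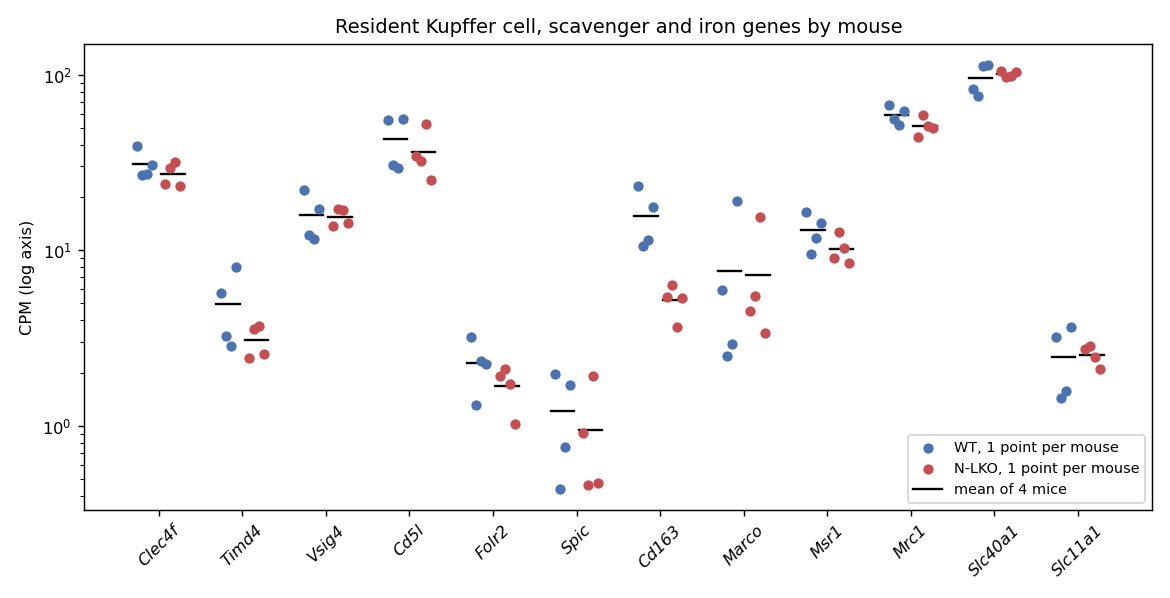
CPM on a log axis for the 12 resident identity, scavenger and iron genes, with 1 point per mouse (blue WT, red N-LKO) and a black line at the mean of 4 mice. Cd163 is the 1 gene in which the red and blue points do not overlap, and Marco shows the widest spread within both genotypes.

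The 3 chains of C1q, which starts the classical complement pathway and is made largely by macrophages, are neighbors on chromosome 4 between 136880129 and 136898803. C1qa was at 17.2, 12.1, 12.9 and 16.4 CPM in WT and at 12.1, 11.5, 17.1 and 12.2 CPM in N-LKO livers. N-LKO mouse 3 was within the WT range and the other 3 N-LKO mice were at or near its lower end. The log2 fold changes were -0.15 for C1qa, -0.07 for C1qb and -0.04 for C1qc, with standard errors of 0.156, 0.204 and 0.216.

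Of the 8 Fc receptor and phagocytic genes, 0 passed the adjusted threshold and 2 had positive log2 fold changes. Clec7a encodes Dectin-1, a receptor for fungal glucans on monocytes, macrophages and dendritic cells, with a minus-strand locus on chromosome 6 between 129461591 and 129472779. Its level was 5.45, 3.06, 2.73 and 4.03 CPM in WT livers, and 5.84, 6.86, 6.90 and 4.21 CPM in N-LKO livers. N-LKO mice 1 to 3 were above every WT mouse, and N-LKO mouse 4 lay below WT mouse 1. The log2 fold change was 0.63 (standard error 0.233), with an unadjusted p of 0.0206 and an adjusted p of 0.277 from edgeR.

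Axl and Mertk are receptor kinases by which macrophages bind dying cells through Gas6 and Protein S. Axl was at 12.8, 6.82, 9.64 and 13.1 CPM in WT and at 11.1, 15.2, 19.4 and 11.3 CPM in N-LKO livers. N-LKO mice 2 and 3 were above the WT range and the others inside it (log2 fold change 0.42, standard error 0.227, edgeR adjusted p = 0.485). Mertk was at 19.1 ± 2.95 CPM (SD, n = 4) in WT mice against 19 ± 2.94 CPM (SD, n = 4) in N-LKO mice. Fcer1g, the signaling chain of several Fc receptors, had a log2 fold change of -0.38 (standard error 0.239). Siglec1 (CD169) was at -0.24, and the activating receptors Fcgr3 and Fcgr1 were at -0.10 and -0.07. The inhibitory receptor Fcgr2b, which sinusoidal endothelial cells also express, was at -0.01 with a standard error of 0.0720. It had the narrowest range among WT mice of all genes on the list, 1.14-fold from lowest to highest, and 155 of its exonic bases are shared with the antisense gene Gm38204.

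The 7 general macrophage and leukocyte genes had log2 fold changes from -0.19 to 0.40, and 0 of them had an unadjusted p under 0.05. Adgre1 was at 9.24, 4.06, 4.95 and 12.9 CPM in WT and at 4.93, 6.86, 9.89 and 5.91 CPM in N-LKO livers. Its N-LKO values all lay within the WT range (log2 fold change -0.19, standard error 0.343). Csf1r, the receptor for the growth factor on which Kupffer cells depend, was at 26.0, 15.7, 14.1 and 26.7 CPM in WT and at 16.1, 19.9, 23.4 and 17.6 CPM in N-LKO livers. Here too the N-LKO livers fell inside the WT range (log2 fold change -0.11, standard error 0.209), and 873 exonic bases of Csf1r overlap Hmgxb3 on the other strand.

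Ptprc, the leukocyte phosphatase CD45, was at 11.5, 7.25, 7.10 and 12.9 CPM in WT and at 7.20, 10.1, 10.6 and 8.69 CPM in N-LKO livers. No N-LKO liver was outside the WT range for Ptprc either (log2 fold change -0.09, standard error 0.208). Cybb, the catalytic subunit of the phagocyte NADPH oxidase, and Aif1 (IBA1) were at 0.01 and -0.01. Laptm5, a lysosomal protein of leukocytes, was at 0.26 with a standard error of 0.205. Cd14, the co-receptor for lipopolysaccharide, was at 0.40 with a standard error of 0.323.

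Lyz2, the lysozyme gene of macrophages, monocytes and neutrophils, was at 31.6, 14.7, 20.2 and 31.1 CPM in WT and at 18.6, 28.8, 41.8 and 28.4 CPM in N-LKO livers. N-LKO mouse 3 was the highest of the 8 and WT mouse 2 the lowest, and the log2 fold change of 0.26 was within its standard error of 0.269. Lyz1 and Lyz2 are close copies whose reads a counting program could split, so the Lyz2 level is uncertain to that extent. Ly6c2 was at 0.127 to 0.331 CPM in WT and 0.204 to 0.796 CPM in N-LKO livers, too few counts for a test.

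Of the transcription factors, Spi1 (PU.1), which macrophages need to form, was at 3.10, 0.813, 0.761 and 1.93 CPM in WT and at 0.851, 1.65, 1.53 and 1.70 CPM in N-LKO livers. The N-LKO livers lay inside the WT range, and the log2 fold change of -0.24 had a standard error of 0.439. Irf7, a factor of the interferon response, was at 11.1, 10.1, 15.3 and 15.4 CPM in WT and at 7.88, 9.37, 13 and 9.44 CPM in N-LKO livers. Of the 4 N-LKO livers, 3 were below the WT range, and the log2 fold change was -0.39 (standard error 0.182, edgeR adjusted p = 0.405). Irf8, a factor of monocytes and dendritic cells, was at 0.25 with a standard error of 0.287. Maf, which is not restricted to macrophages, was at -0.07 with a standard error of 0.115. For Irf7 and Maf, 45 and 440 exonic bases overlap genes on the other strand.

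Cd74 and Cd83, genes of antigen presentation and of activated cells, had positive log2 fold changes of 0.20 and 0.59 with standard errors of 0.310 and 0.331. Cd83 was at 2.51, 0.938, 1.52 and 2.15 CPM in WT and at 2.95, 2.31, 3.91 and 1.63 CPM in N-LKO livers. N-LKO mice 1 and 3 were above the WT range and the edgeR adjusted p was 0.506.

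The resident and the general markers were then set against each other. The resident side held the 6 identity and the 6 scavenger and iron genes, and the general side the 25 other genes tested. On the resident side 10 of 12 log2 fold changes were negative, with a median of -0.24, and on the general side 16 of 25, with a median of -0.04. The difference of the medians was -0.19. With each mouse left out the resident median ranged from -0.40 (without N-LKO mouse 3) to -0.13 (without WT mouse 1), and the general median from -0.14 (without WT mouse 3) to 0.081 (without WT mouse 1). The difference stayed between -0.28 and -0.16, and with the 6 identity genes against the 7 general macrophage genes it was -0.31. In single mice the median deviation of the resident genes from their WT mean, minus that of the general genes, was 0.0089, -0.095, 0.0084 and -0.092 on the log2 scale in WT mice. In N-LKO mice it was -0.038, -0.12, -0.35 and -0.52. N-LKO mice 2 to 4 were below every WT mouse and N-LKO mouse 1 lay among them. The WT mean was the reference, so WT values lie around 0 by construction, while N-LKO values need not. These medians are descriptions of the chosen genes and were given no test.

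The genes of the list moved together from mouse to mouse within a genotype. WT mice 1 and 4 were the 2 highest WT mice in 32 of 38 genes (84.2%), against 15% of all tested genes. This pair was picked after the values had been seen, so the 2 shares are a description. The median deviation from the WT mean over the 38 genes was 0.39 and 0.33 on the log2 scale in these mice, and -0.38 and -0.39 in WT mice 2 and 3. In N-LKO mice it was -0.23, 0.016, 0.25 and -0.15, inside the WT range. N-LKO mouse 3 was the highest N-LKO mouse in 27 of 38 genes, and the share over all tested genes was not computed for it.

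**Figure D3:**
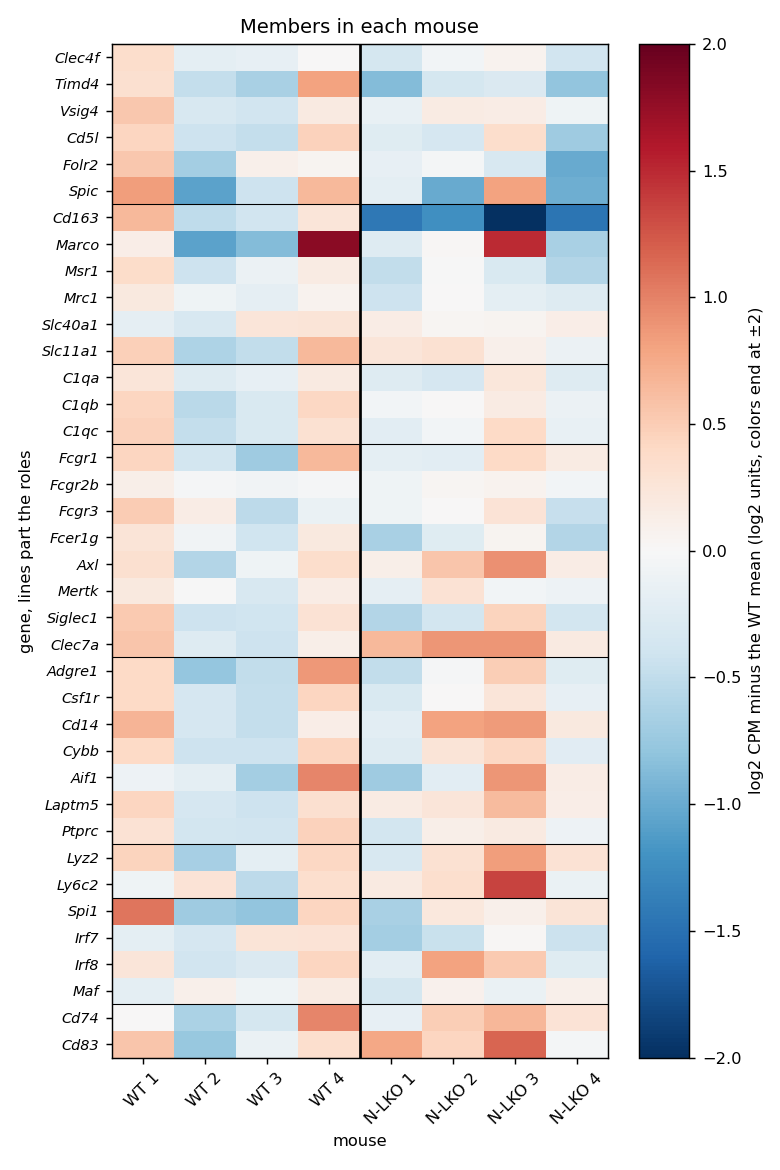
Log2 CPM minus the mean of the 4 WT mice (color, red above and blue below) for the 38 genes with a row (vertical) in each of the 8 mice (horizontal), with lines between roles and between genotypes. WT mice 1 and 4 are red and WT mice 2 and 3 blue in most rows, N-LKO mouse 3 is the reddest N-LKO column, and Cd163 is blue in each N-LKO mouse, including mouse 3.

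Because of this shared shift, Cd163 was also read relative to other Kupffer cell genes of the same liver. The ratios were chosen after the values had been seen, with Cd163 known not to overlap between genotypes, so they are given as a description with no test. The ratio of Cd163 to Clec4f was 0.597, 0.393, 0.422 and 0.574 in WT and 0.229, 0.214, 0.114 and 0.230 in N-LKO livers. All 4 N-LKO ratios were below all 4 WT ratios. Cd163 over Csf1r went from 0.760 ± 0.115 (SD, n = 4) to 0.279 ± 0.0835 (SD, n = 4). Cd163 over Vsig4 went from 0.982 ± 0.0849 (SD, n = 4) to 0.340 ± 0.0830 (SD, n = 4). Neither of these ratios overlapped between genotypes. Clec4f over Csf1r was 1.57 ± 0.328 (SD, n = 4) in WT mice against 1.42 ± 0.0805 (SD, n = 4) in N-LKO mice, and the genotypes overlapped. Clec4f over Adgre1 was 4.67 ± 1.81 (SD, n = 4) against 4.08 ± 0.669 (SD, n = 4), and Timd4 over Clec4f was 0.159 ± 0.0712 (SD, n = 4) against 0.112 ± 0.00784 (SD, n = 4), both with overlap.

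**Figure D4:**
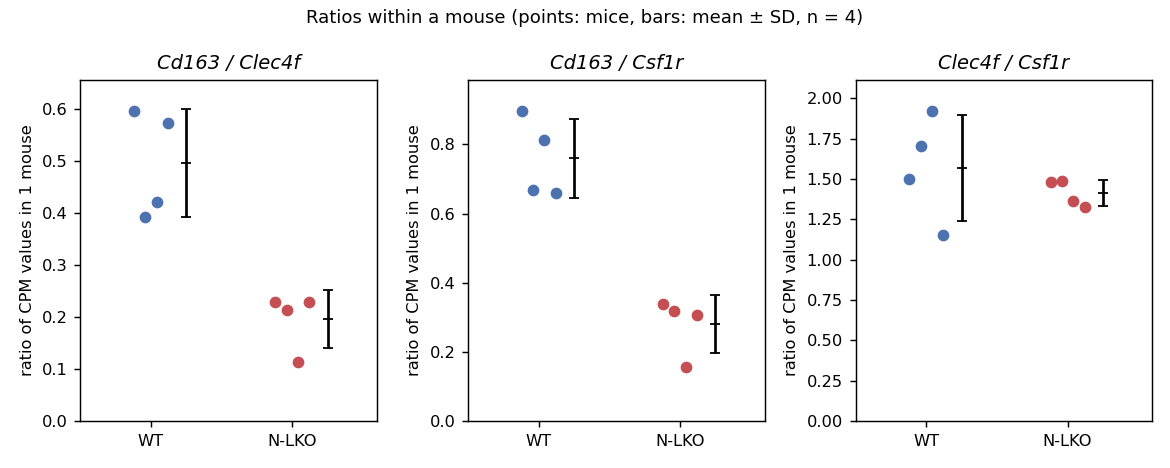
Ratio of CPM values within 1 mouse for Cd163 over Clec4f, Cd163 over Csf1r and Clec4f over Csf1r (vertical axes from 0), with 1 point per mouse and bars of the mean ± SD (n = 4). The 4 N-LKO points lie below the 4 WT points in the first 2 panels, and the genotypes overlap in the last.

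Per length of exons, the most abundant genes of the list in WT livers were Cd5l at 21.1 ± 7.32 CPM per kb (SD, n = 4) and Lyz2 at 18.5 ± 6.33 CPM per kb (SD, n = 4). C1qa at 14.1, C1qb at 13.9, Cd74 at 13.2 and Clec4f at 12.5 CPM per kb came next. The order of these neighbors was not tested. Each gap is smaller than the larger SD over mice of the 2 genes it parts. That SD includes the shift that the genes share from mouse to mouse, so it does not settle their order within a mouse. Slc40a1 and Vsig4 followed at 10.7 and 10.6 CPM per kb, and hepatocytes also express the former. Cd163 was much lower at 2.88 ± 1.09 CPM per kb (SD, n = 4) in WT livers, near Cybb at 3.01 and Timd4 at 2.29.

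Genes that act with the markers were counted from lists of the pathway. Of 17 tested ligands and niche factors, 0 were called by edgeR at an adjusted p under 0.05. These include Csf1, a ligand of Csf1r (log2 fold change -0.18), Hp, the haptoglobin that Cd163 binds together with hemoglobin (0.03), Hpx, the heme carrier hemopexin (0.02), and Gas6, a ligand of Axl and Mertk (0.02). Mfge8, a bridge between dying cells and phagocytes, was at 4.92 ± 0.987 CPM (SD, n = 4) in WT mice against 9.13 ± 3.03 CPM (SD, n = 4) in N-LKO mice (log2 fold change 0.89, unadjusted p = 0.00358, edgeR adjusted p = 0.134). It was called in 2 of 8 other settings, by DESeq2 (adjusted p = 0.0200) and with the title number as a block in edgeR (adjusted p = 0.0486), and in 1 of 8 edgeR fits with a mouse left out. Of 31 tested genes that act downstream of these receptors or in the same macrophages, 0 were called by edgeR. In whole liver RNA their levels were not assigned to a cell type. Pltp, a phospholipid transfer protein, had a log2 fold change of -0.91 (unadjusted p = 0.00134, edgeR adjusted p = 0.0819) and was called by DESeq2 (adjusted p = 0.00343) and under no other setting. Hmox1, the heme oxygenase that degrades the heme taken up through Cd163, was at 0.16.

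Markers of recruited and of lipid-associated macrophages were counted in the same way. These lists were chosen with earlier results of these data known, so the counts called are a description and not a test. No level on them was assigned to a cell type in whole liver RNA. Of 8 tested markers of recruited monocytes, 1 was called higher, against 0.823% of all tested genes. This marker was Cx3cr1, the fractalkine receptor, with 0 to 7 counts per WT library and 17 to 50 counts per N-LKO library (log2 fold change 2.97, standard error 0.608, edgeR adjusted p = 0.0499). Its call held in 1 of the 8 fits with a mouse left out, with edgeR adjusted p up to 0.151, and in 4 of 7 other settings. Ccr2, the receptor that brings monocytes into tissue, was at 0.15 with a standard error of 0.423. Of the 8 genes, 2 had negative log2 fold changes, Itgam at -0.48 (standard error 0.412) and Il1b at -0.81 (standard error 0.627). Of 7 tested markers of lipid-associated macrophages, 3 were called higher, against 0.823% of all tested genes. These were Gpnmb (log2 fold change 3.47, edgeR adjusted p = 0.00162), Mmp12 (3.47, edgeR adjusted p = 0.00032) and Spp1 (1.51, edgeR adjusted p = 0.0353). Cd9, at -0.01 (standard error 0.149), and Fabp5, at -0.04 (standard error 0.297), showed no such rise. Trem2 and Itgax fell below the filter. Trem2 had 0 to 2 counts per WT library and 6 to 13 counts per N-LKO library. With no filter, edgeR called Trem2 higher (log2 fold change 3.12, adjusted p = 0.0402). Itgax had 1 to 12 counts per WT library and 6 to 18 counts per N-LKO library. With each mouse left out, Gpnmb and Mmp12 were called in 8 of 8 fits and Spp1 in 2 of 8. The call of Spp1 held in 5 of 8 other settings, with adjusted p up to 0.0901 from edgeR with the library number as a block. The paper also names Spp1 among the genes high in a hepatocyte cluster enriched for HCC, in mice on another diet. Its level here was not assigned to a cell type. Lgals3 (log2 fold change 0.91, unadjusted p = 0.00203, edgeR adjusted p = 0.105) and Cd63 (0.81, unadjusted p = 0.0180, edgeR adjusted p = 0.260) were not called by edgeR, and DESeq2 called Lgals3 (adjusted p = 0.0172).

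Markers of other cells in the liver were read beside the Cd163 result. Of 10 tested genes of sinusoidal endothelial cells, among them Mrc1 and Fcgr2b, 0 were called by edgeR, and their summed level was 279 to 337 CPM in WT and 256 to 306 CPM in N-LKO livers. Gpr182 was the 1 endothelial gene with an unadjusted p under 0.05 (log2 fold change -0.35, edgeR adjusted p = 0.255). Of 8 tested stellate cell genes 0 were called by edgeR, and Dcn (log2 fold change 0.43), Pdgfrb (1.04) and Des (0.63) had unadjusted p values under 0.05. Pdgfrb had an adjusted p of 0.0688 from edgeR and was called by DESeq2 (adjusted p = 0.00201) and under no other setting. The summed stellate level was 189 to 270 CPM in WT and 238 to 357 CPM in N-LKO livers. Of 8 hepatocyte, 6 dendritic cell, 2 T or NK cell and 1 neutrophil genes tested, 0 were called by edgeR, and no B cell gene passed the filter. B cell genes summed to 1.75 to 4.08 CPM in WT and 1.02 to 2.65 CPM in N-LKO livers, and neutrophil genes to 0.750 to 3.85 CPM and 1.98 to 2.72 CPM. Erythroid genes, of which 0 of 5 were called by edgeR, varied most between mice. Their sum went from 58.9 to 553 CPM in WT and from 58.1 to 296 CPM in N-LKO livers. Alas2 was at 0.46 (edgeR unadjusted p = 0.0324). The 4 tested globin genes had negative log2 fold changes, from -1.02 (Hba-a1) to -0.81 (Hbb-bs), with standard errors of 0.841 to 0.890. The part of these cells in the level of Cd163 was not tested.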

How the data were processed

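Liver RNA was compared between 4 WT and 4 N-LKO mice fed CD, 1 library per mouse, grouped by the genotype in the labels. The authors deposited expected counts, estimated reads per gene that need not be whole and were not scaled for depth. The study's methods name TopHat2 and cuffdiff, while the submitters' processing notes name STAR, Partek and mm9. The program and annotation behind the counts were not given in the sources used here. Of all genes, 52.2% had decimals in at least 1 mouse. Coordinates in the table matched GENCODE M21 (GRCm38) for the 38 members with a row.

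Counts were rounded, filtered with filterByExpr (minimum count 10, minimum total 15), normalized with TMM and fitted in edgeR 4.0.16 by quasi-likelihood (genotype as the only term) in R 4.3.3, with Benjamini-Hochberg adjustment over 14214 genes and a threshold of 0.05. The study's cuffdiff needs reads and was not run. Log2 CPM used a prior count of 2. Levels per kb used the union of exons. DESeq2 1.42.0, limma-voom (limma 3.58.1), other scalings and filters, blocks and each mouse left out were the alternatives. The steps were tested on simulated counts.

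The members, gene lists and alternatives were chosen with earlier results of these data known. Every member was accounted for, with values in each mouse for Clec4f, Cd163, Timd4, Adgre1, Csf1r, Ptprc, Spi1, C1qa, Lyz2 and members with an unadjusted p under 0.05 or no overlap. Values in each mouse for Vsig4, Msr1, Marco, Axl, Irf7 and Cd83 were added after the values had been seen. Genes of other lists were named where called or with an unadjusted p under 0.05. Csf1, Hp, Hpx, Gas6, Hmox1, Ccr2, Itgam, Il1b, Cd9, Fabp5, Trem2, Itgax, Hba-a1 and Hbb-bs were named after their values had been seen. Sources do not tie same-numbered mice of the 2 genotypes to a litter or batch.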

Additional observations from a re-analysis of the deposited data

Results flagged for a closer look

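In 2 of 76 groups of 4 mice (38 genes in each genotype), 1 mouse stood apart from the other 3 by Dixon's criterion, and chance flags about 1 in 20 groups, or 3.8 of 76. Both were N-LKO mouse 3, in which C1qa was at 17.1 CPM against 11.5 to 12.2 CPM in the other N-LKO livers, and Siglec1 at 4.51 CPM against 2.15 to 2.51 CPM. N-LKO mouse 3 was the highest N-LKO mouse in 27 of the 38 genes.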

How the results depend on the processing

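Cd163 was called, as the 1 member, under both other scalings, both other filters, DESeq2, limma-voom and both replicate blocks (log2 fold change -1.64 to -1.54, adjusted p up to 0.0460). With each mouse left out, the number of members called ranged from 0 to 1, with 0 without WT mouse 4 and without N-LKO mouse 3. The replicate number of the titles as a block gave 1 member called and 131 genes called in all, and the library number as a block gave 1 member and 113 genes, against 148 without a block. Same-numbered mice correlated at -0.085 to 0.062 by title and -0.0092 to 0.17 by library, so the numbers were not taken to pair the mice. DESeq2 called 371 genes in all, and the filter of 10 counts in every mouse left 98. The difference between resident and general medians was -0.28 to -0.16 with each mouse left out, and -0.31 with the 6 identity genes against the 7 general macrophage genes. The resident median was -0.40 to -0.13 with each mouse left out and the general median -0.14 to 0.081, so the latter changed sign. A prior count of 0.5 bears on log2 CPM per mouse and on no call.

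Of the 37 members, 20 kept their sign under every alternative, 11 changed it in fits without 1 mouse alone, and the rest also under another setting. With each mouse left out, the log2 fold changes of the members that changed sign were Vsig4 (-0.15 to 0.18), Marco (-0.78 to 0.91), Slc40a1 (-0.025 to 0.16), Slc11a1 (-0.16 to 0.27), C1qb (-0.22 to 0.081), C1qc (-0.20 to 0.13), Fcgr1 (-0.27 to 0.19), Fcgr2b (-0.038 to 0.028), Fcgr3 (-0.26 to 0.099), Mertk (-0.12 to 0.053), Adgre1 (-0.41 to 0.17), Csf1r (-0.25 to 0.042), Cybb (-0.12 to 0.16), Aif1 (-0.42 to 0.48), Ptprc (-0.21 to 0.078), Spi1 (-0.47 to 0.26) and Maf (-0.14 to 0.0098). The replicate block by title gave 0.0058 for Vsig4, 0.11 for Marco and 0.0017 for Aif1. The block by library number gave 0.0090 for Vsig4, 0.13 for Marco, 0.000797 for Fcgr1 and 0.035 for Aif1. Limma-voom gave 0.094 for Marco and 0.0030 for Fcgr1. Library totals without TMM gave -0.011 for Slc11a1 and -0.017 for Cybb, and no filter gave -0.0014 for Cybb. The cause was not tested, and none of these values passed the threshold. Depth was lowest for Ly6c2, with 2 to 12 counts per library, and for Spic, with 7 to 37.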
